A study of Mus musculus with 12 samples.

Results

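Tyro3, Axl and Mertk, the TAM family of receptor tyrosine kinases, and Gas6 and Pros1, their ligands, were followed after spinal cord injury in knockouts of interleukin-1 alpha (Il1a KO), knockouts of interleukin-1 beta (Il1b KO) and wild-type C57BL/6 mice. The 5 genes were chosen by symbol in the platform annotation, out of 19938 genes with a usable probe set. Where a gene has several probe sets the brightest stood for it, but each of the 5 had 1 probe set and none was shared with another gene, so measured values did not decide which signal was read. The set was proposed with earlier results of these arrays known, and each member is therefore read from a fit and an adjustment over all genes. All mice were 8 to 12 weeks old, were listed on the C57BL/6 background and received a contusion (50 kdyn). RNA came from 6 mm of cord around the lesion, collected at 24 h. Each group had 4 arrays, which the labels call biological replicates without naming animals, and p-values here therefore reflect array-to-array spread, which may be technical. No uninjured cord was among the samples, so levels here describe the injured state and not a response to injury. The parts of Il1a and Il1b that were deleted, and the position of the probes within them, are not stated in the labels used here.

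TAM receptors do not bind dying cells directly. Gas6 and Protein S, the product of Pros1, carry a vitamin K-dependent Gla domain that attaches to phosphatidylserine on the surface of apoptotic cells and cell debris, and their other end binds the receptor, so that the phagocyte is bridged to its target and engulfs it. The same receptors restrain innate immune signalling in macrophages and dendritic cells. Gas6 binds all 3 receptors, whereas Protein S binds Tyro3 and Mertk and is also a plasma anticoagulant. In the nervous system Tyro3 is mainly neuronal and is found in oligodendrocytes too, Mertk is used by microglia, astrocytes and macrophages to clear debris and synapses, and Axl is induced in activated phagocytes.

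Promoter windows are shown for Tyro3, the member that changed, and for Mertk, which lies on the same chromosome and did not pass the test. Each is the 250 bases before the RefSeq start in GRCm38.p6, 5′ to 3′ on the plus strand, with GC boxes (GGGCGG or its reverse complement CCGCCC) in capitals. The first lies at chr2:119799264-119799513 and the second at chr2:128698665-128698914.
Tyro3: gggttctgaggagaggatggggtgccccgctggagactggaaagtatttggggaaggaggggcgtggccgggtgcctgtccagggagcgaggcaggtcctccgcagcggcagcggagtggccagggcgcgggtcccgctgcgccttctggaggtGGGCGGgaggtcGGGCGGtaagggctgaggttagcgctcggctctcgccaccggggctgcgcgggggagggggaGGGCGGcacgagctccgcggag
Mertk: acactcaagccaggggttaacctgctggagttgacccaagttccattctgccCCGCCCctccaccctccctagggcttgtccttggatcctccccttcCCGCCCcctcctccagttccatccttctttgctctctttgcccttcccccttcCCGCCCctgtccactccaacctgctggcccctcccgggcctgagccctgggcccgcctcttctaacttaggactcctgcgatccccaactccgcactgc
All 5 members matched a window, and all 5 windows were richer in G and C (54.8% in Gas6 to 73.2% in Tyro3) than the median of all windows (52.4%). GC boxes were found 3 times in Tyro3, 1 time in Axl, 3 times in Mertk, 4 times in Gas6 and 5 times in Pros1, and 32.7% of the 32851 windows of this length held at least 1. Neither the TATA box (TATAAA) nor the AP-1 motif (TGANTCA), searched on both strands, was present in any of the 5, against 12.4% and 6.75% of all windows. The kappa B consensus, the site recognised by the transcription factor that interleukin-1 activates, matched 1 time in Tyro3 and 0 times in the other members, and 7.25% of all windows held it. These matches describe letters in a window and not binding sites.

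The arrays were alike in distribution, with medians over genes of 8.16 to 8.20 on the log2 scale, and any pair correlated over genes at 0.993 to 0.999. Marker genes of neurons (list means 11.38 to 11.48), mature oligodendrocytes (11.53 to 11.84) and astrocytes (11.08 to 11.18) were well above these medians in all 12 arrays. Il1b averaged 6.42 ± 0.183 in the Il1b KO and 7.83 ± 0.161 in wild type, and Il1a averaged 4.97 ± 0.0749 in the Il1a KO, 5.10 ± 0.209 in the Il1b KO and 5.87 ± 0.232 in wild type (SD, n = 4 each). The Il1a signal was thus lower than wild type in both knockouts (log2 difference -0.90, limma adjusted p = 0.00372 in the Il1a KO, and -0.77, limma adjusted p = 0.00390 in the Il1b KO) and did not tell the knockouts apart (-0.13, limma adjusted p = 0.849). Il1a KO replicate 1 had a male profile in sex-linked genes (Xist 6.47 against at least 11.89 elsewhere, Eif2s3y 9.15 against at most 3.94), so sex was not balanced between groups. The tissue is a mixture of cells, and fewer cells of a type cannot be told apart from less RNA per cell in any value below.

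Tyro3, the receptor that is mainly neuronal in the central nervous system, was the member that changed, and it changed in the Il1b KO. Its values were 8.95, 8.88, 8.85 and 8.79 in the Il1a KO arrays, 9.39, 9.13, 9.30 and 9.15 in the Il1b KO arrays, and 8.85, 8.85, 8.64 and 8.72 in the wild-type arrays. All 4 Il1b KO arrays lay above all 8 others, while the Il1a KO and wild type overlapped. The group means were 8.87 ± 0.0674 in the Il1a KO, 9.24 ± 0.124 in the Il1b KO and 8.76 ± 0.102 in wild type (SD, n = 4 each). Tyro3 was 1.39-fold higher in the Il1b KO than in wild type (log2 difference 0.48, SE 0.0664, 95% interval 0.34 to 0.62, limma adjusted p = 0.00255). In that contrast 0.813% of all genes passed the threshold of an adjusted p of 0.05, and 7% of all genes separated the Il1b KO arrays fully from wild type. Tyro3 ranked 54 of 19938 genes by p. In the Il1a KO the difference from wild type did not pass (log2 difference 0.10, 95% interval -0.04 to 0.25, limma adjusted p = 0.763), in a contrast that called 0.171% of all genes and left 5.06% without overlap.

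The direct comparison of the knockouts tested whether the Tyro3 levels differed between them. Tyro3 was lower in the Il1a KO than in the Il1b KO, with a log2 difference of -0.37 (SE 0.0664, 95% interval -0.52 to -0.23, limma adjusted p = 0.0174), a 1.30-fold higher level in the Il1b KO, and 0.652% of all genes passed in this contrast while 7.24% had no overlap. This call did not hold in every fit that left out an array. Leaving out Il1a KO replicate 2 gave -0.38 (limma adjusted p = 0.0594), leaving out replicate 3 gave -0.37 (0.0667) and leaving out replicate 4 gave -0.35 (0.0813), so the call was lost each time. It was also lost when Il1b KO replicate 1 (-0.33, limma adjusted p = 0.0512) or Il1b KO replicate 3 (-0.36, limma adjusted p = 0.0756) was left out. It held without Il1a KO replicate 1, the array with the male profile (-0.40, adjusted p = 0.0279). The rise against wild type passed in every fit that left out an array, at log2 differences of 0.43 to 0.52 and adjusted p up to 0.0135.

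**Figure D1:**
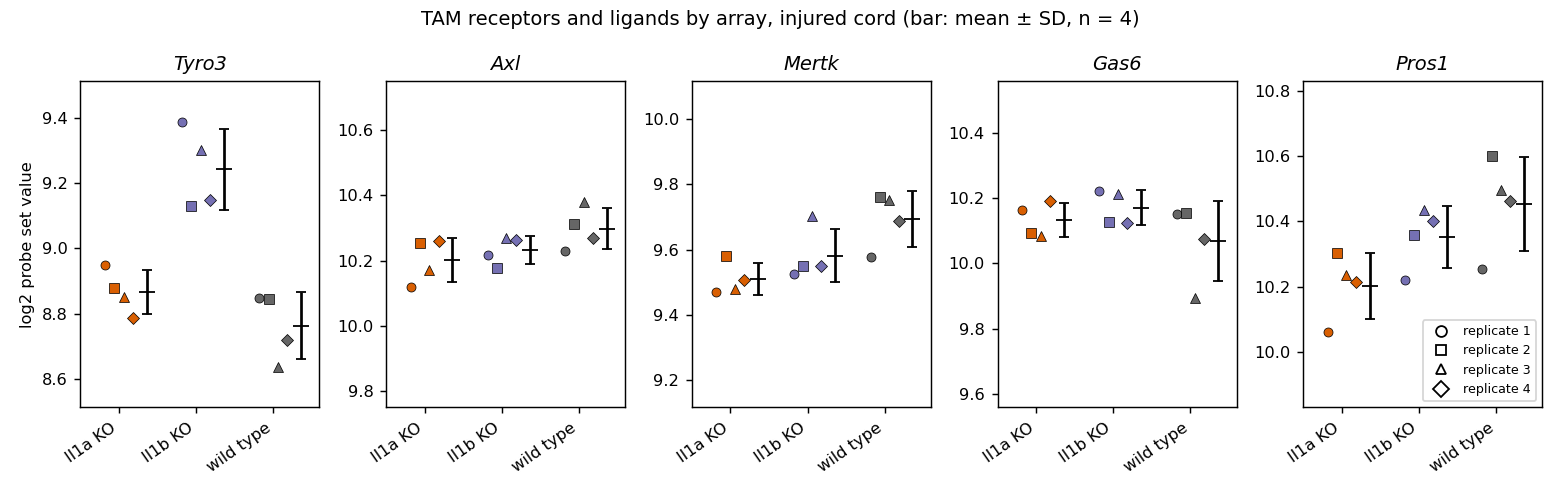
Log2 probe set values of the 5 genes in each of the 12 arrays, by genotype, each panel spanning 1 log2 unit; symbols mark the replicate number, and bars give the mean ± SD of 4 arrays. The 4 Il1b KO arrays of Tyro3 (9.13 to 9.39) lie above the Il1a KO (8.79 to 8.95) and wild type (8.64 to 8.85), and in the other 4 panels the genotypes overlap.

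Axl, the receptor induced in activated phagocytes, passed the test in none of the 3 contrasts. Its values were 10.12, 10.25, 10.17 and 10.26 in the Il1a KO, 10.22, 10.18, 10.27 and 10.26 in the Il1b KO, and 10.23, 10.31, 10.38 and 10.27 in wild type. The 3 groups overlapped, and their means spanned less than 0.1 on the log2 scale. The log2 difference from wild type was -0.10 in the Il1a KO (95% interval -0.20 to 0.0027, limma adjusted p = 0.621) and -0.07 in the Il1b KO (95% interval -0.17 to 0.03, limma adjusted p = 0.584). Between the knockouts it was -0.03 (95% interval -0.13 to 0.07, limma adjusted p = 0.923).

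Mertk, the receptor used by microglia, astrocytes and macrophages to engulf debris, also missed the threshold. Its values were 9.47, 9.58, 9.48 and 9.51 in the Il1a KO, 9.53, 9.55, 9.70 and 9.55 in the Il1b KO, and 9.58, 9.76, 9.75 and 9.69 in wild type. The highest Il1a KO array (9.58) lay just above the lowest wild-type array, replicate 1 (9.58), and below the other 3 wild-type arrays. The mean was 9.51 ± 0.050 in the Il1a KO, 9.58 ± 0.0815 in the Il1b KO and 9.69 ± 0.0855 in wild type (SD, n = 4 each). The log2 difference from wild type was -0.18 in the Il1a KO (95% interval -0.30 to -0.07) and the unadjusted interval left out 0, but the limma adjusted p was 0.306. In the Il1b KO it was -0.11 (95% interval -0.23 to 0.0014, limma adjusted p = 0.391), and between the knockouts -0.07 (95% interval -0.19 to 0.04, limma adjusted p = 0.817).

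Gas6, the ligand of all 3 receptors, had values of 10.16, 10.09, 10.09 and 10.19 in the Il1a KO, 10.22, 10.13, 10.21 and 10.12 in the Il1b KO, and 10.15, 10.15, 9.89 and 10.08 in wild type. Wild type replicate 3 was the lowest of the 12 arrays, and the groups overlapped. The log2 difference from wild type was 0.06 in the Il1a KO (95% interval -0.06 to 0.19, limma adjusted p = 0.873) and 0.10 in the Il1b KO (95% interval -0.02 to 0.23, limma adjusted p = 0.479). Without wild type replicate 3 it was 0.0060 in the Il1a KO (limma adjusted p = 0.973) and 0.04 in the Il1b KO (limma adjusted p = 0.611). Between the knockouts it was -0.04 (95% interval -0.16 to 0.09, limma adjusted p = 0.923).

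Pros1, which encodes Protein S, had the widest spread within wild type of the 5 genes. Its values were 10.06, 10.30, 10.23 and 10.21 in the Il1a KO, 10.22, 10.36, 10.44 and 10.40 in the Il1b KO, and 10.25, 10.60, 10.50 and 10.46 in wild type. Replicate 1 was the lowest array in each genotype, and 3 of the 4 wild-type arrays lay above all Il1a KO arrays. The log2 difference from wild type was -0.25 in the Il1a KO (95% interval -0.41 to -0.09) and the unadjusted interval left out 0, but the limma adjusted p was 0.326. In the Il1b KO it was -0.10 (95% interval -0.26 to 0.06, limma adjusted p = 0.611), and between the knockouts -0.15 (95% interval -0.31 to 0.01, limma adjusted p = 0.682). Without wild type replicate 1 the difference in the Il1a KO was -0.32 (limma adjusted p = 0.0845) for Pros1 and -0.22 (limma adjusted p = 0.107) for Mertk. Without Il1a KO replicate 1, the array with the male profile, it was -0.20 (limma adjusted p = 0.792) for Pros1 and -0.17 (limma adjusted p = 0.788) for Mertk.

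**Figure D2:**
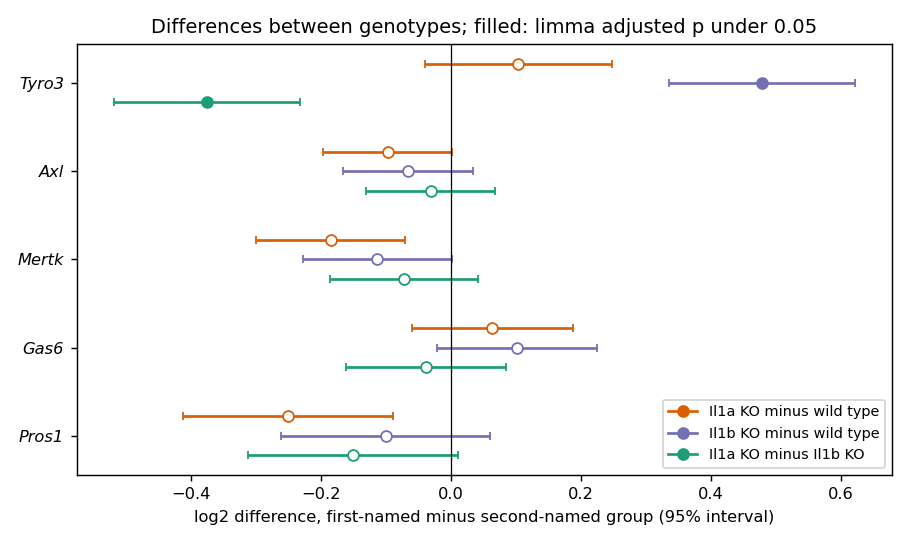
Log2 differences between genotypes for each gene, the first-named group minus the second, with 95% intervals that are not adjusted for the number of genes; filled points have a limma adjusted p under 0.05. Tyro3 lies at 0.48 for the Il1b KO against wild type and at -0.37 for the Il1a KO against the Il1b KO, and the 13 open points span -0.25 to 0.10.

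By group means, Tyro3 and Gas6 stood highest in the Il1b KO, then the Il1a KO, then wild type, whereas Axl, Mertk and Pros1 stood highest in wild type, then the Il1b KO, then the Il1a KO. Apart from Tyro3 in the Il1b KO, no neighbours in these orders differed past the threshold. Both knockouts were set against the same 4 wild-type arrays, so the shared signs of their differences are not separate observations. Probe set values are not levels per transcript length, and no order between the 5 genes is drawn from them.

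Tyro3 and Mertk lie on chromosome 2, as do Il1a and Il1b, and the 10 nearest measured genes on each side of each were compared. Along the RefSeq gene order 121 measured genes separate Tyro3 from Il1a, 10 separate Mertk from Il1a, and 110 separate Tyro3 from Mertk. Of the 20 neighbours of Tyro3, 2 were higher and 0 lower in the Il1b KO than in wild type, against 0.813% of all genes called. Pla2g4e, a cytosolic phospholipase A2 placed 5 genes from Tyro3, averaged 1.54 higher on the log2 scale (SE 0.0676, limma adjusted p = 4.43e-08). Zfp106, a zinc finger protein placed 10 genes away, rose by 0.39 (SE 0.0354, limma adjusted p = 6.31e-05). The 4 measured genes between Tyro3 and Pla2g4e did not pass, and the median difference of the 20 neighbours was 0.04, from -0.17 to 1.54. In 6 of the 20 the Il1b KO and wild-type arrays did not overlap, against 7% of all genes. At an unadjusted p under 0.05 there were 8 of the 20, against 2593 of 19938 genes.

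The same 2 genes were lower in the Il1a KO than in the Il1b KO, by log2 differences of -1.55 for Pla2g4e (limma adjusted p = 7.21e-08) and -0.32 for Zfp106 (limma adjusted p = 4.81e-04). In that contrast Ndufaf1, an assembly factor of respiratory complex I placed 5 genes to the other side, was higher in the Il1a KO (0.23, limma adjusted p = 0.0262). The arrays of the 2 knockouts did not overlap in 10 of the 20 neighbours of Tyro3, against 7.24% of all genes. At an unadjusted p under 0.05 there were also 10 of the 20, against 1554 of 19938 genes. Between the Il1a KO and wild type 0 of the 20 passed, against 0.171% of all genes. At an unadjusted p under 0.05 there was 1 of the 20, against 1658 of 19938 genes. Of the 20 neighbours of Mertk, 0 passed in the Il1a KO and 1 in the Il1b KO, against 0.171% and 0.813% of all genes. At an unadjusted p under 0.05 there were 4 in the Il1a KO and 2 in the Il1b KO, against 1658 and 2593 of 19938 genes. The arrays did not overlap with wild type in 2 of the 20 in each knockout, against 5.06% of all genes in the Il1a KO and 7% in the Il1b KO. The gene that passed was Mall, a membrane protein of the MAL family, which fell by 0.44 on the log2 scale in the Il1b KO (limma adjusted p = 9.51e-04). Mall was higher in the Il1a KO than in the Il1b KO (0.51, limma adjusted p = 2.71e-04). Of the 110 measured genes between Tyro3 and Mertk, 7 were higher and 6 lower in the Il1b KO than in wild type (11.8% called, against 0.813% of all genes). In the Il1a KO 0 of the 110 passed, against 0.171% of all genes. Tyro3 lay in a stretch of chromosome 2 that held other genes changed in both directions in the Il1b KO. What part the stretch has in the Tyro3 difference was not tested.

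**Figure D3:**
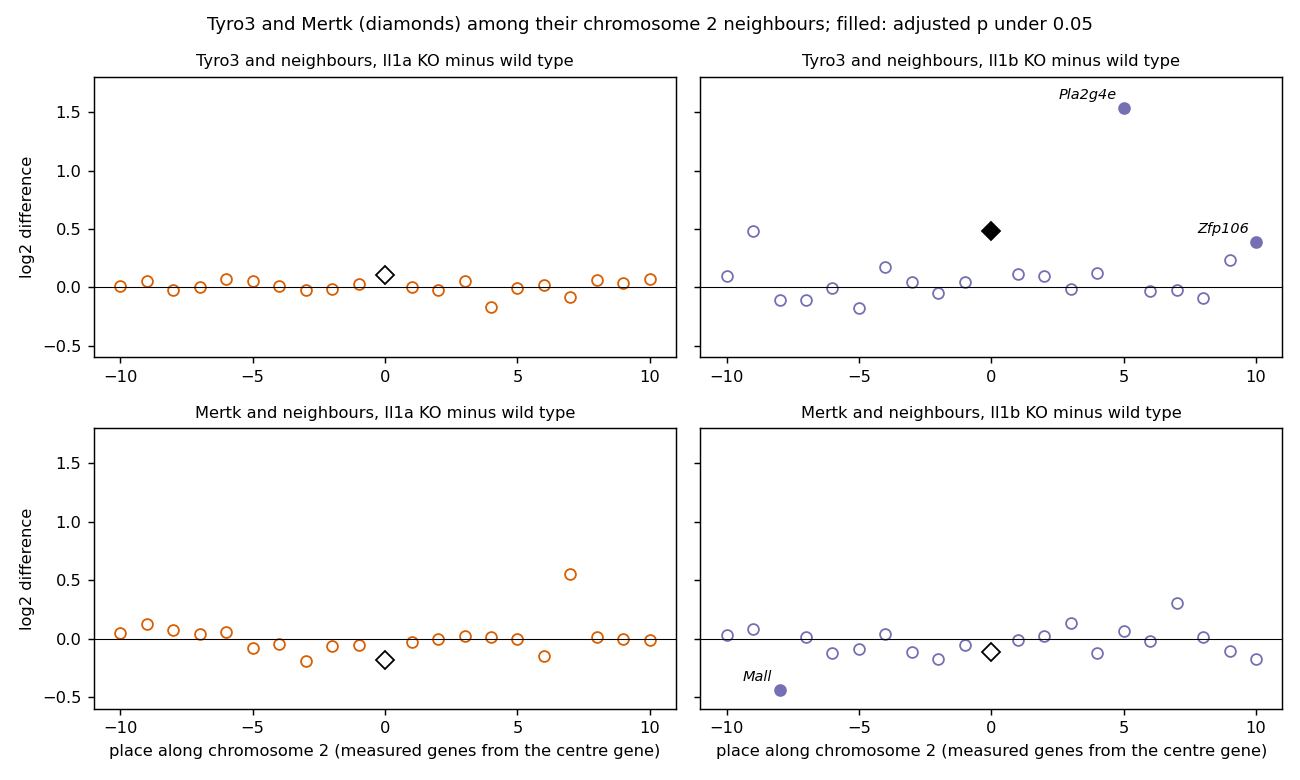
Log2 differences of Tyro3 (top row) and Mertk (bottom row), drawn as diamonds, and of the 10 measured genes on each side along chromosome 2, for the Il1a KO (left) and the Il1b KO (right) minus wild type; the horizontal axis counts genes and filled symbols have a limma adjusted p under 0.05. Tyro3 (0.48), Pla2g4e (1.54), Zfp106 (0.39) and Mall (-0.44) are filled in the Il1b KO, and no symbol is filled in the Il1a KO.

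The members were also set against each other across arrays, after the mean of each genotype had been subtracted. Over the 10 pairs and 12 arrays, Mertk and Pros1 varied most closely, with Pearson r = 0.82 (exact within-group permutation p = 0.00564, adjusted over the 10 pairs 0.0564) and Spearman rho = 0.87 (permutation p = 4.34e-04, adjusted 0.00434). Without the 2 arrays farthest from the median of Mertk, r was 0.77. Replicate 1 was the lowest array of both Mertk and Pros1 in each genotype. The permutation within groups does not keep replicate numbers together, and the part of replicate 1 in this relation was not tested. Axl followed Mertk (r = 0.70, permutation p = 0.0184, adjusted 0.0615; rho = 0.73, permutation p = 0.0137, adjusted 0.0687) and Pros1 (r = 0.67, permutation p = 0.0429, adjusted 0.107; rho = 0.69, permutation p = 0.0341, adjusted 0.0854), and without the 2 farthest arrays r was 0.69 and 0.62. Tyro3 followed Gas6 (r = 0.71, permutation p = 0.0179, adjusted 0.0615; rho = 0.69, permutation p = 0.0278, adjusted 0.0854), with r = 0.63 without the 2 farthest arrays. Of these pairs only Mertk with Pros1 passed the adjustment, and only by the rank measure. In the other 6 pairs r ran from -0.40 to -0.11, with adjusted p of at least 0.434. All arrays share the authors' normalization, and 4 arrays a genotype are too few to give the relation within each group.

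**Figure D4:**
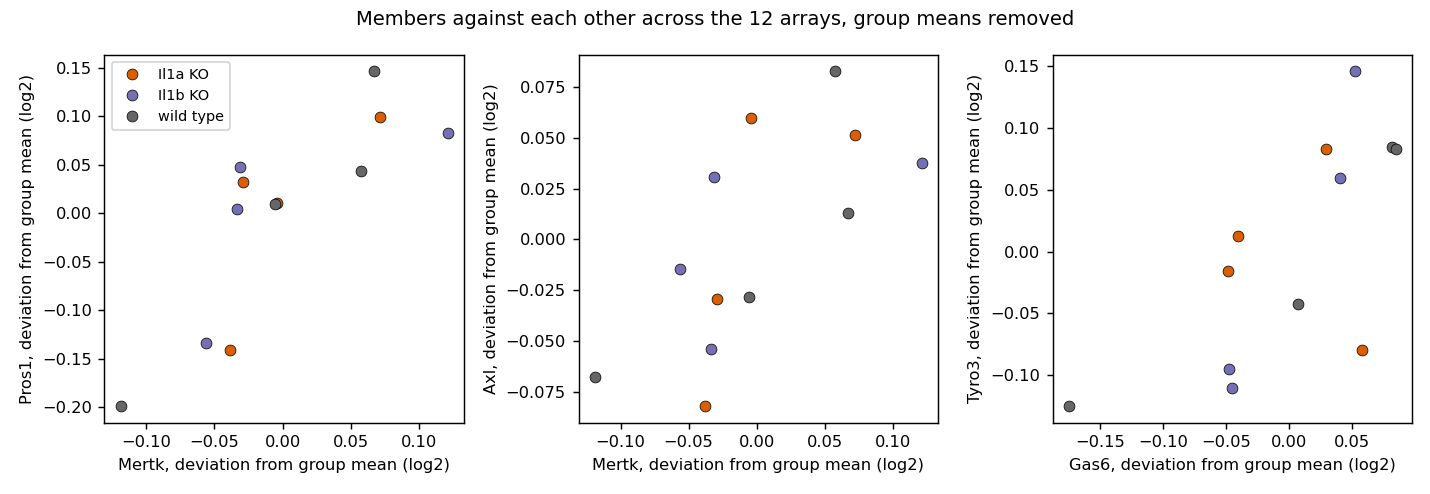
Deviations of each array from its genotype's mean (log2) for Mertk against Pros1, Mertk against Axl, and Gas6 against Tyro3; each point is 1 of 12 arrays, coloured by genotype. The points rise together in all 3 panels, with r of 0.82, 0.70 and 0.71.

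For each gene the 3 genes with the highest Pearson r over the 12 arrays, of 19938, were taken as a description. For Tyro3 these were Pnck, a calmodulin-dependent kinase (r = 0.96, and 0.73 with group means removed), Erbb4, a neuregulin receptor (0.96 and 0.76), and Rusf1 (0.95 and 0.71). For Axl they were Ano6, a scramblase that exposes phosphatidylserine (0.95 and 0.95), Fndc3a (0.94 and 0.94) and Pabpc1, a poly(A)-binding protein (0.92 and 0.88). Mertk was most like Slc14a1, a urea transporter (0.96 and 0.89), Myof, a membrane repair protein (0.95 and 0.89), and Stt3a, a subunit of oligosaccharyltransferase (0.95 and 0.94). Gas6 was most like Eef1a2, an elongation factor of neurons and muscle (0.94 and 0.92), Igdcc4 (0.93 and 0.92) and Hdhd5 (0.93 and 0.91). Pros1 was most like Il13ra1, a receptor chain for interleukin-13 (0.97 and 0.95), Flna, an actin crosslinker (0.96 and 0.94), and Plod3, a collagen lysyl hydroxylase (0.96 and 0.91).

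The genes around the TAM system were examined by lists. Of 25 measured recognition receptors and bridging proteins for apoptotic cells other than the TAM system, 0 passed in any limma contrast, and 2 or 3 had an unadjusted p under 0.05 in each. Out of all 19938 genes that unadjusted count was 1658 in the Il1a KO, 2593 in the Il1b KO and 1554 between the knockouts. In the Il1a KO 4 of the 25 were above and 21 below wild type, where 50.2% of all genes were above. Their median log2 difference was -0.06, against 0.0003 over all genes. In the Il1b KO 12 were above and 13 below, where 52.0% of all genes were above. The median there was -0.0082, against 0.004 over all genes. Megf10, an engulfment receptor of astrocytes, differed from wild type by 0.19 in the Il1a KO (limma adjusted p = 0.253) and 0.16 in the Il1b KO (limma adjusted p = 0.208), with no overlap of arrays in either. Calr, a chaperone that marks dying cells for uptake when exposed, differed by -0.16 between the Il1a KO and the Il1b KO (limma adjusted p = 0.186).

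Of 16 measured genes of the engulfment machinery 0 passed in any contrast (1 or 2 at an unadjusted p under 0.05), with medians of 0.0029 in the Il1a KO and 0.04 in the Il1b KO against wild type. Elmo2, part of an activator of Rac, was at 0.10 in the Il1a KO (limma adjusted p = 0.439), and Trio, a guanine nucleotide exchange factor, at 0.10 in the Il1b KO (limma adjusted p = 0.297). Of 13 genes of phosphatidylserine exposure and its reversal 0 passed in any contrast (1 or 2 unadjusted). Among them Plscr1, a phospholipid scramblase family member, was at -0.19 in the Il1a KO (limma adjusted p = 0.329), and Atp8a2, a flippase of neurons, at 0.12 in the Il1b KO (limma adjusted p = 0.258). Of 7 don't-eat-me signals 0 passed (0 unadjusted), with Cd24a at -0.15 in the Il1a KO (limma adjusted p = 0.602) and Siglecg at -0.12 in the Il1b KO (limma adjusted p = 0.52).

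On the ligands' side, 0 of 15 genes of vitamin K-dependent carboxylation and other Gla proteins passed in any contrast (at most 2 unadjusted). Ggcx, the carboxylase that modifies Gas6 and Protein S, was lower in the Il1a KO than in the Il1b KO in every array, by -0.15 (limma adjusted p = 0.141). Vkorc1, which recycles vitamin K, was also at -0.15 in that contrast (limma adjusted p = 0.437). Of 7 partners of Protein S in coagulation and complement, 1 passed in 1 contrast, the one between the knockouts, where 0.652% of all genes passed. At an unadjusted p under 0.05 there were 4 of the 7 in the Il1a KO, 1 in the Il1b KO and 3 between the knockouts. The same counts over 19938 genes were 1658, 2593 and 1554. In the Il1a KO 6 of the 7 were below wild type, where 50.2% of all genes were above it. In 3 of the 7 the arrays did not overlap, against 5.06% of all genes. Thbd, the thrombomodulin that starts the protein C pathway for which Protein S is the cofactor, was lower in the Il1a KO than in the Il1b KO, by -0.42 (SE 0.0704, limma adjusted p = 0.0114). Against wild type Thbd was at -0.17 in the Il1a KO (limma adjusted p = 0.541) and 0.25 in the Il1b KO (limma adjusted p = 0.142). Procr, the endothelial protein C receptor, was at -0.26 in the Il1a KO with no overlap of arrays (limma adjusted p = 0.131). The median of these partners was -0.16 in the Il1a KO and 0.0003 in the Il1b KO.

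Downstream of the receptors, 0 of 18 genes of TAM signalling and feedback passed in any contrast (at most 2 unadjusted). In the Il1a KO 3 were above and 15 below wild type (median -0.03), where 50.2% of all genes were above. In the Il1b KO 13 were above and 5 below (median 0.02), where 52.0% of all genes were above. Stat3, a transcription factor of cytokine signalling, was at -0.13 in the Il1a KO (limma adjusted p = 0.328), and Tec, a kinase of blood cells, at -0.25 (limma adjusted p = 0.357). Of 5 genes of receptor shedding 0 passed (0 unadjusted), and Adam17, a protease that releases the Mertk ectodomain, was at 0.01 in the Il1a KO and 0.09 in the Il1b KO (limma adjusted p = 0.993 and 0.579). Of the same list Rhbdf2, which escorts Adam17, was at -0.06 in the Il1a KO (limma adjusted p = 0.868). Of 14 nuclear receptors and transcription factors tied to Mertk and Axl expression 0 passed (at most 1 unadjusted). Nr1d1, a repressor of the clock, was at -0.20 in the Il1b KO (limma adjusted p = 0.137), and Tead1, a partner of Yap1, at -0.11 in the Il1a KO (limma adjusted p = 0.628).

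**Figure D5:**
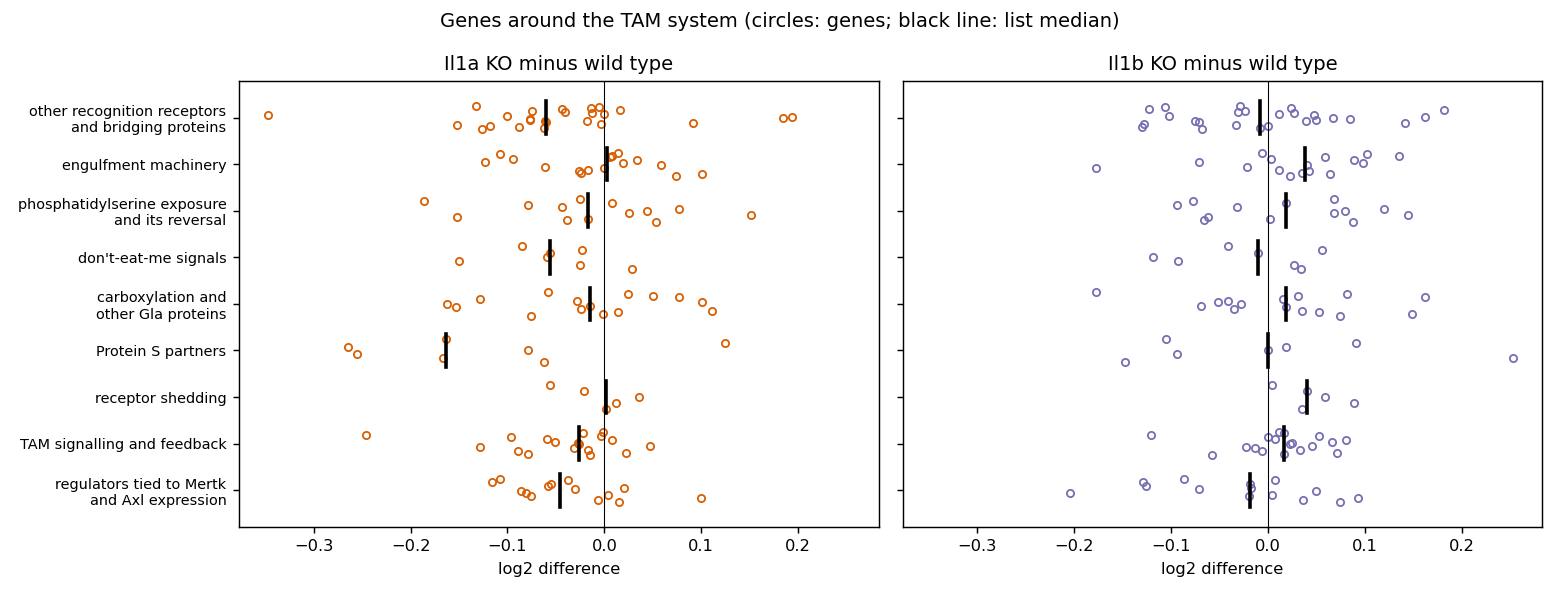
Log2 differences of each measured gene of 9 lists around the TAM system, for the Il1a KO (left) and the Il1b KO (right) minus wild type; circles are genes and black lines list medians. No gene shown passed the threshold against wild type, and the partners of Protein S have the lowest median in the Il1a KO (-0.16).

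Markers of the cells that carry these genes were set beside them. As a background for the counts of markers above or below, 50.2% of all genes were above wild type in the Il1a KO and 52.0% in the Il1b KO. For the counts past the threshold, 0.171% of all genes passed in the Il1a KO, 0.813% in the Il1b KO and 0.652% between the knockouts. Beside the rise of Tyro3, 6 of 10 neuron markers were above and 4 below wild type in the Il1b KO, with 0 past the threshold and list means of 11.40 to 11.48 in the Il1b KO and 11.40 to 11.43 in wild type. Mature oligodendrocyte markers were above wild type in 9 of 9 genes in the Il1b KO (median 0.10, 0 past the threshold, list means 11.62 to 11.75 in the Il1b KO and 11.53 to 11.66 in wild type). They were likewise above in 9 of 9 in the Il1a KO (median 0.09, 0 past the threshold, list means 11.70 to 11.84). Pericyte and fibroblast markers were above in 7 of 10 in the Il1b KO (list means 9.70 to 9.80 in the Il1b KO and 9.53 to 9.78 in wild type), with 1 past the threshold, Rgs5 of pericytes (0.22, limma adjusted p = 0.033). Pdgfra, of fibroblasts and oligodendrocyte precursors, was at 0.14 in the Il1b KO (limma adjusted p = 0.276). Rbfox3, a marker of mature neurons, was at 0.12 in both knockouts with no overlap with wild type (limma adjusted p = 0.320 in the Il1a KO and 0.181 in the Il1b KO), and Gad1, of inhibitory neurons, at -0.10 in the Il1a KO (limma adjusted p = 0.450) and -0.0080 in the Il1b KO (limma adjusted p = 0.954). Mog, a myelin glycoprotein, was at 0.20 in the Il1a KO (limma adjusted p = 0.243) and 0.12 in the Il1b KO (limma adjusted p = 0.342), and Opalin, of oligodendrocytes, at 0.53 in the Il1a KO (limma adjusted p = 0.160) and 0.28 in the Il1b KO (limma adjusted p = 0.346). The part of these cells in the Tyro3 difference was not tested.

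Beside Mertk, Axl and Pros1, monocyte and macrophage markers were below wild type in 8 of 11 genes in the Il1a KO (median -0.12, 0 past the threshold, list means 8.62 to 8.85 in the Il1a KO and 8.83 to 9.06 in wild type). In the Il1b KO 6 of 11 were below (list means 8.67 to 8.97), and Itgam, an integrin of myeloid cells, fell by 0.48 on the log2 scale (limma adjusted p = 0.0384). Fn1, which encodes fibronectin, was at -0.19 in the Il1a KO (limma adjusted p = 0.320) and 0.06 in the Il1b KO (limma adjusted p = 0.719). Homeostatic microglia markers were below in 5 of 9 in the Il1a KO (list means 8.59 to 8.70 in the Il1a KO and 8.47 to 8.66 in wild type) and in 8 of 9 in the Il1b KO (list means 8.51 to 8.60). Gpr34, a receptor of microglia, was higher in the Il1a KO than in the Il1b KO by 0.31 (limma adjusted p = 0.0299), in a list with 5 genes above and 4 below in that contrast (median 0.0076). Fcrls, also of microglia, was above wild type in every array of the Il1a KO (0.27, limma adjusted p = 0.298) and of the Il1b KO (0.34, limma adjusted p = 0.0636), and differed by -0.07 between the knockouts (limma adjusted p = 0.886). Neutrophil markers were below in 12 of 12 in the Il1a KO (median -0.35, 0 past the threshold, 6 at an unadjusted p under 0.05). In the Il1b KO 10 of 12 were below (median -0.21, 1 past the threshold, 4 unadjusted), and Ly6g fell by 0.55 on the log2 scale (limma adjusted p = 0.00869). Their list means were 7.54 to 7.89 in the Il1a KO, 7.45 to 8.10 in the Il1b KO and 7.89 to 8.23 in wild type. Mmp9, a gelatinase, was at -0.35 in the Il1a KO (limma adjusted p = 0.320) and -0.29 in the Il1b KO (limma adjusted p = 0.258). Astrocyte markers were below in 6 of 10 in the Il1a KO and 5 of 10 in the Il1b KO, where Sox9 fell by 0.19 on the log2 scale (limma adjusted p = 0.0405). Gfap, the intermediate filament of astrocytes, was at -0.12 in the Il1a KO (limma adjusted p = 0.304) and -0.03 in the Il1b KO (limma adjusted p = 0.739). Over 50 relations between a member and a marker list across the 12 arrays, with group means removed, 0 passed the adjustment by Pearson's r or by Spearman's rho (exact within-group permutation). Pearson's r ran from -0.72 (Tyro3 with monocytes and macrophages, permutation p = 0.0250) to 0.81 (Gas6 with homeostatic microglia, permutation p = 0.0246), with adjusted p of at least 0.218. For Tyro3, r was 0.74 with astrocytes, 0.72 with homeostatic microglia and 0.55 with neurons (permutation p = 0.0115, 0.0107 and 0.0692). Missing the adjustment over 12 arrays does not show that these relations are absent. Of the remaining lists, endothelial markers had medians of 0.0084 in the Il1a KO and 0.06 in the Il1b KO, skeletal muscle markers -0.16 in the Il1a KO and -0.18 in the Il1b KO, and Schwann cell markers 0.14 in both, with 0 past the threshold. Their genes with the smallest p in the 3 contrasts were Cdh5 (-0.19 in the Il1a KO, limma adjusted p = 0.339) and Flt1 (0.16 in the Il1b KO, limma adjusted p = 0.0645) of endothelium, Acta1 (-0.35 in the Il1b KO, limma adjusted p = 0.245) and Myh1 (-0.14 in the Il1a KO, limma adjusted p = 0.434) of muscle, and Pmp22 (0.14 in the Il1b KO, limma adjusted p = 0.315) and Sox10 (0.14 in the Il1b KO, limma adjusted p = 0.318) of Schwann cells. The part of these cells in the values of Mertk, Axl and Pros1 was not tested.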

How the data were processed

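The deposited table holds 1 log2 value per probe set and array, made by the authors. The submitters' processing notes list Partek, limma, RMA and GCOS 1.4 without saying what each did. That the deposited log2 values are RMA summaries was inferred from these names and from their range (2.97 to 14.4). RMA equalises the arrays, so an overall shift would not show and it shrinks differences of dim genes. The table gives no detection call, and arrays have no total count, so their number limits the precision.

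Of 35557 probe sets 21789 had exactly 1 gene symbol in the platform annotation, 1621 had several and 12147 had no listed gene. The brightest set stood for each of 19938 genes. RefSeq (GRCm38.p6, by Entrez identifier) gave current symbols, the order on chromosome 2 and the promoter windows. The platform's own build is not stated in the labels.

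Group means were estimated jointly from the 12 arrays by limma 3.58.1 in R 4.3.3, and 3 contrasts were tested two-sided with Benjamini-Hochberg adjustment over all genes and a threshold of 0.05. The fit was also run on simulated data with independent normal values for each gene, which lack the variation that genes share on these arrays. That run therefore does not test the fit's assumptions here. Single genes were also tested by exact permutation. Alternatives were another quantile normalization, all probe sets averaged, a variance trend, no dim genes (lowest 25%), only the groups compared, array weights, a replicate block and each array left out. The main fit did not pair arrays by replicate number. Same-numbered arrays correlated over 0.1 in only 2 of 12 pairs (deviations from group means, -0.37 to 0.44). Replicate 1 was nonetheless the lowest array of Mertk and of Pros1, and the highest of Tyro3, in each genotype. The labels name no batch, and whether same-numbered arrays share one was not tested.

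The members and the gene lists were chosen with earlier results of these data known. Named were the members, the targeted genes, list genes past the threshold or among the 2 smallest p of their list (of the sex-linked genes, Xist and Eif2s3y), called neighbours on chromosome 2 and the 3 genes most like each member. Some list genes had no probe set of their own and were not used here.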

Additional observations from a re-analysis of the deposited data

Results flagged for a closer look

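Mertk in Il1b KO replicate 3 stood apart from its group, at 9.70 against 9.53 to 9.55 in the other 3 arrays (gap divided by range 0.861, above Dixon's 95% critical value for 4 samples). Il1a in wild type replicate 1 stood apart likewise, at 6.22 against 5.74 to 5.78 (0.931). Of 21 groups of 4 arrays examined, 2 were past the critical value, and chance gives about 1 in 20. The Tyro3 difference from wild type was unlike in the knockouts, with a direct log2 difference of -0.37 between the Il1a KO and the Il1b KO (limma adjusted p = 0.0174), lower in 4 of 4 Il1a KO arrays than in any Il1b KO array.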

How the results depend on the processing

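The sign of each of the 15 differences of the members was kept in all 15 alternative fits of it. Tyro3 passed in the Il1b KO in 15 of 15 (adjusted p 5.10e-04 to 0.0202). Between the knockouts it passed in 10 of 15. With each array left out the log2 difference there ran from -0.41 to -0.33 (adjusted p 0.0165 to 0.0813), and it was lost without Il1a KO replicate 2 (-0.38), 3 (-0.37) or 4 (-0.35) or Il1b KO replicate 1 (-0.33) or 3 (-0.36). The other 13 differences passed in none, with the lowest adjusted p at 0.0541 for Mertk and 0.0625 for Pros1, both in the Il1a KO. The exact permutation test gave Tyro3 p = 0.0286 in both of its calls, the smallest that 4 against 4 arrays allow. With the replicate block Tyro3 in the Il1b KO had an adjusted p of 0.00318 and between the knockouts of 0.0166, the block changed no call of a member, and 26, 120 and 105 genes passed in the 3 contrasts; in 2 of 12 comparisons an array correlated best with its own number. For Pros1 in the Il1a KO against wild type the SE was 0.0450 with the block and 0.0746 without it (limma adjusted p = 0.102 and 0.326). Counts of genes past the threshold moved more than the calls of members. For the Il1a KO, the Il1b KO and between the knockouts 34, 162 and 130 genes passed. With array weights 306, 1145 and 244 passed, and with a variance trend 72 and 303 in the Il1a KO and the Il1b KO. With only the groups compared 15 and 85 passed there, and with an array left out 18 to 49, 106 to 177 and 88 to 119. The lowest counts came without wild type replicate 4 (18 and 106), and 19 passed in the Il1a KO without its replicate 3 or 4 and 107 in the Il1b KO without its replicate 1. The cause of these moves was not tested. Without wild type replicate 3 the Gas6 difference was 0.0060 in the Il1a KO and 0.04 in the Il1b KO, against 0.06 in the Il1a KO and 0.10 in the Il1b KO with it. The table gives no background signal, so signal over background was not assessed.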
